A study of Mus musculus with 2 samples.

Results

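The genes described here encode the subunits of the oxidative phosphorylation machinery that lie in the nuclear genome. They were chosen by symbol, as Nduf with a letter (a, b, c, s or v) and a number, Sdha to Sdhd, Cyc1 and Cycs. Symbols that begin with Uqcr, Cox4 to Cox8 or Atp5 were also taken. Only letters and digits could follow, so pseudogenes with a hyphen in the symbol, such as Uqcrh-ps1, were left out. Of the 55536 annotated genes 90 matched. Of these, 86 are annotated as protein-coding: 35 of complex I, 4 of complex II, 9 of complex III, 19 of complex IV, 18 of complex V and the 1 gene of somatic cytochrome c. The other 4 are processed pseudogenes (Ndufs6b, Ndufa11b, Ndufb4c and Cox6c2). Atp5s matched by its symbol but is not a structural subunit, and Atp5o has 2 annotation entries, of which 1 is a readthrough with a neighbour. Cox7a2l, a factor of respiratory supercomplexes, and Ndufa4, a subunit once assigned to complex I, were placed in complex IV.

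RNA was taken from the nucleoplasm, which other label fields call nucleus, of mouse bone marrow derived macrophages (BMDM, strain C57BL/6J, primary cells) given 100 ng/ml Lipid A for 10 min. Lipid A is the part of bacterial lipopolysaccharide that Toll-like receptor 4 recognises. After ribosomal RNA depletion, 2 libraries were sequenced as biological replicates 1 and 2 of 1 group, from 1 µg of RNA for replicate 1 and 500 ng for replicate 2. Cells without Lipid A, other times and the cytoplasm were not analysed here, so all values are levels at 1 time and the only contrast is between the 2 libraries. The labels give separate biosamples of 1 donor identifier, and how far they differ may be partly a technical matter. Age and sex were not collected. With 1 library on each side the contrast between libraries has no p-value.

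The respiratory chain passes electrons from NADH (complex I) and succinate (complex II) through ubiquinone to complex III, then through cytochrome c to complex IV, which reduces oxygen. Complexes I, III and IV pump protons, and complex V, the ATP synthase, makes ATP as the protons flow back. The nuclear genome encodes most subunits and the mitochondrial genome a few core ones of every complex except complex II. Both genomes must be expressed to assemble complexes I, III, IV and V. Macrophages stimulated through Toll-like receptors are known to shift their metabolism toward glycolysis, with complexes I and II taking part in inflammatory signalling. Nuclear RNA of these genes includes molecules that are still being spliced or await export.

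The libraries held 19153465 expected counts on annotated genes in replicate 1 and 11622346 in replicate 2, and the biological coefficient of variation between them was 16.2% over 14547 genes. TPM is a level per effective transcript length, scaled to the same sum in each library, and a gene is called detected at 1 TPM or more in both libraries. All 10 macrophage markers were detected, with sums of 4414 TPM (replicate 1) and 2838 TPM (replicate 2). The 7 neutrophil markers summed to 5.50 and 4.28 TPM, with S100a8 the 1 detected and Elane at 0 counts in both libraries. The T and NK cell (5), B cell (4), erythroid (4) and fibroblast (5) markers each summed to under 1 TPM in each library, with Cd3e, Ncr1, Nkg7, Hbb-bs and Pdgfra at 0 counts.

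Promoter sequences are shown first because these genes are a textbook case of shared promoter elements: NRF1, ETS family factors such as GABP, and YY1 are known activators of respiratory chain genes. RefSeq promoter windows (GRCm38.p6, 250 bases before the start site and 50 from it on) were matched for 70 of the 86 protein-coding members, in 74 windows. The motifs searched on both strands were CCGGAAG for ETS, AAGATGGC for YY1 and, for NRF1, the 10 letters capitalised in the Sdha window, with any base at the sixth. For each complex 1 window is printed, that of the member with the highest mean TPM over the libraries among those with a match. It runs from 250 bases before the start site through the first 30 bases from it on. Sequences are 5' to 3' on the strand of the gene, with the matches in capitals. Ndufa3 (complex I, chr7:3617123-3617402, + strand) holds a YY1 match that begins 22 bases after the start site. Sdha (complex II, chr13:74350211-74350490, - strand) holds 3 NRF1 matches on the strand of the gene. Uqcrh (complex III, chr4:116075041-116075320, - strand) and Cox6b1 (complex IV, chr7:30626085-30626364, - strand) each hold 1 ETS match on the opposite strand. Atp5h (complex V, chr11:115419890-115420169, - strand) holds 1 NRF1 and 1 ETS match.
Ndufa3: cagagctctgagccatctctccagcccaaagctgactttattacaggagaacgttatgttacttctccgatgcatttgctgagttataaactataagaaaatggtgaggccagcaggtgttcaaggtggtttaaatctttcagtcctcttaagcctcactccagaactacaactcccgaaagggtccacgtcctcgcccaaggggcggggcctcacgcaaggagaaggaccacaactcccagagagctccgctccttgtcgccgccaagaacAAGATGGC
Sdha: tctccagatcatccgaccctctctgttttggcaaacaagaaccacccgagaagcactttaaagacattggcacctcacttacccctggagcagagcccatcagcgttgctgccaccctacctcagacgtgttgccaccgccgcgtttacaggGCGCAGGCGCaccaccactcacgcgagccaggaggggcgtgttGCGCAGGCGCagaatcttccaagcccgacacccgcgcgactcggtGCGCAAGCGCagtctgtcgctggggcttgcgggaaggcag
Uqcrh: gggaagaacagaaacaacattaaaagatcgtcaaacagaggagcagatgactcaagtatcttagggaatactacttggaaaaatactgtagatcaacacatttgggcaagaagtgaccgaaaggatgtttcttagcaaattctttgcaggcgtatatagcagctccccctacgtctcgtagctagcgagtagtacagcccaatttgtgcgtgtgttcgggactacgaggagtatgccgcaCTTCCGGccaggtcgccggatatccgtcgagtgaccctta
Cox6b1: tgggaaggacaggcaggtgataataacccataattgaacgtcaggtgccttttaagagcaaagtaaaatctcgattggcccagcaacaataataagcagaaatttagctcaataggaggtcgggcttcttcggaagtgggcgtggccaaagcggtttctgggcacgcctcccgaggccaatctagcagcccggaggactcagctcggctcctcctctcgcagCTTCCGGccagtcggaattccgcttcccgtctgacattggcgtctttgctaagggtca
Atp5h: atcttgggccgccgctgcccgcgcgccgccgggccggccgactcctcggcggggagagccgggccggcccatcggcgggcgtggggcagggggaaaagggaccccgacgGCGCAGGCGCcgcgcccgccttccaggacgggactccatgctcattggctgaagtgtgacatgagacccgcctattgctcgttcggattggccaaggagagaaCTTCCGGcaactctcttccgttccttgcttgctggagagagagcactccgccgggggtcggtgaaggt

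NRF1 matches stood in 24.3% of member windows, in 11.1% of the 10335 windows of genes detected in these libraries and in 6.60% of all 20152 windows. YY1 matches stood in 13.5% of member windows, 4.99% of windows of detected genes and 3.11% of all windows. The ETS motif was in 21.6% of member windows, 19.6% of those of detected genes and 11.9% of all windows. At least 1 of these 3 motifs was in 38 of 74 member windows (51.4%), against 31.7% of windows of detected genes and 19.4% of all windows. By complex, 18 of 33 windows of complex I, 3 of 3 of complex II, 3 of 5 of complex III, 3 of 14 of complex IV and 11 of 18 of complex V held 1 or more of them, and the window of Cycs held none. The 10 member windows with a YY1 match belonged to complex I (7) or complex V (3), and in 8 of the 10 the match began at or after the start site. Among all windows with a YY1 match that share was 50.2%. The estrogen-related receptor (ERR) motif AAGGTCA was in 10.8% of member windows and 3.17% of those of detected genes, and the cyclic AMP response (CRE) motif TGACGTCA in 6.76% and 3.21%. CCAAT was in 43.2% of member windows and 37.5% of those of detected genes. These are counts of letters with no test, no 2 motifs were required to be apart, and binding was not measured.

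**Figure D1:**
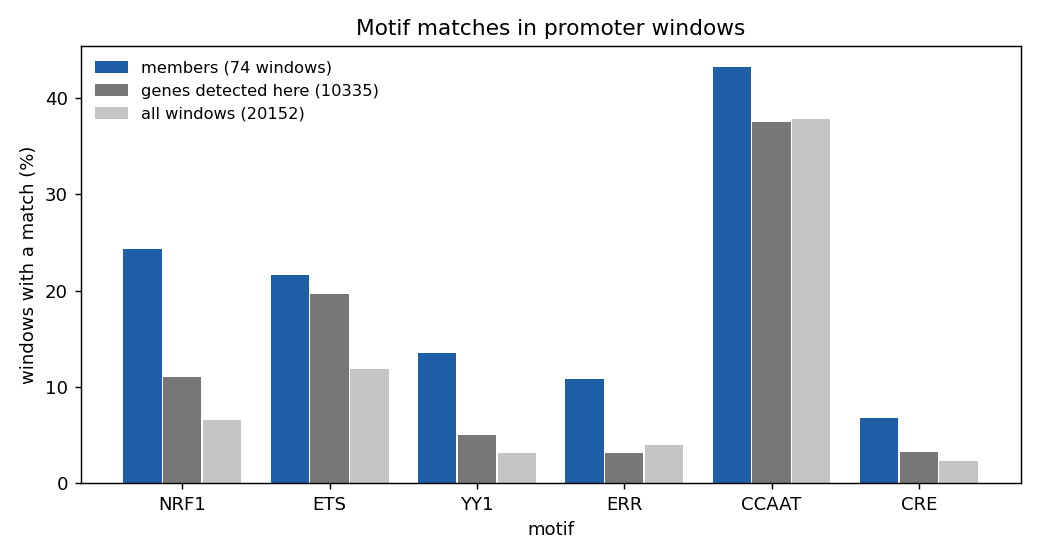
Share of promoter windows with a motif match (vertical axis, %), for 74 windows of the oxidative phosphorylation genes (blue), 10335 windows of genes detected in these libraries (dark grey) and all 20152 windows (light grey). The blue bar is at 24.3% for NRF1, 13.5% for YY1, 10.8% for ERR and 6.76% for CRE, above both grey bars, and at 21.6% for ETS, where the dark grey bar is at 19.6%.

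Many members start close to another gene. A protein-coding gene on the opposite strand began within 1000 bases of the start of 31 of the 85 coding members other than the readthrough entry (36.5%), against 10.8% of all protein-coding genes. Among detected genes the shares were 40.3% of members and 18.2% of all. Of the 31 partners 23 were detected, and the member had the higher level in both libraries in 22 of the 31 pairs (71.0%), against 54.8% of the 1838 detected protein-coding genes with such a partner. All 31 members are detected, so pairs with an undetected partner favour the member, and over the 23 with a detected partner the member was higher in 14 (60.9%), against 45.6% of all. Sdhd, a membrane anchor of complex II, starts 98 bases from Timm8b, a mitochondrial import protein. The starts of Ndufs6 and of the mitochondrial ribosomal protein gene Mrpl36 overlap at a distance of 29 bases, and those of Atp5j and Gabpa, a subunit of GABP, at 700 bases. Members were also compact, with a median span of 7284 bases and 4 exons among detected members, against 23610 bases and 9 exons among all detected protein-coding genes. The exons of 29 of the 90 members overlap another gene, for 25 of them on the opposite strand. The sources used here do not say how strand was handled, and the counts of such overlapping genes are therefore uncertain.

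Of the 86 protein-coding members 77 were detected (89.5%), against 46% of all 22028 protein-coding genes, and 1 pseudogene, Ndufb4c, was detected as well. Over the 90 members the median level stood at 11.3 TPM (replicate 1) and 7.87 TPM (replicate 2), or 9.56 ± 2.39 TPM (SD, n = 2). The median detected member lay at the 50.8th percentile of all detected protein-coding genes by mean TPM. The coding members held 0.425% of the TPM of protein-coding genes in replicate 1 and 0.334% in replicate 2. That TPM includes the 13 mitochondrially encoded subunits, which held 17.7% of it in replicate 1 and 23.3% in replicate 2. The 80 cytosolic ribosomal protein genes held 1.52% and 0.900%, and the 78 mitochondrial ribosomal protein genes 0.195% and 0.183%. At least 10 TPM in both libraries was reached by 34 of the 77 detected coding members. Of the 10123 detected protein-coding genes 4866 reached it, a slightly larger share than among detected coding members.

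**Figure D2:**
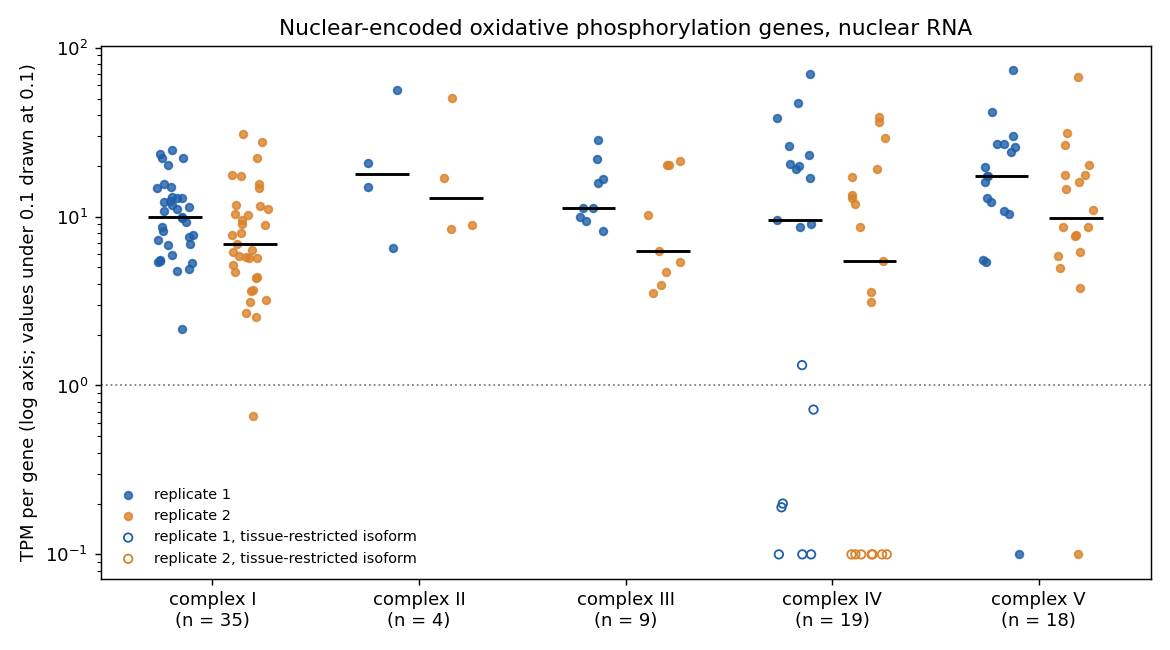
TPM of each member (vertical axis, log scale) by complex, with replicate 1 in blue on the left and replicate 2 in orange on the right. Black lines are medians over all members of the complex, open circles are the 7 tissue-restricted isoforms of complex IV, the dotted line marks 1 TPM, and values under 0.1 TPM are drawn at 0.1. Atp5b (73.6 and 66.7 TPM) stands highest, and Ndufb6 (2.17 and 0.66 TPM) lowest among the coding members that are neither restricted isoforms nor the readthrough entry.

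Complex I members had a median of 9.93 TPM in replicate 1 and 6.92 TPM in replicate 2. The 7 core subunits, which carry the flavin, the iron-sulfur clusters and the quinone site, had medians of 15.7 and 14.7 TPM, and the 28 accessory subunits 9.00 and 5.78 TPM. Ndufs1, the largest subunit of the complex (chr1:63143596-63176833, mm10), had 24.8 TPM in replicate 1 and 30.7 TPM in replicate 2. By TPM it was the highest of the complex in both libraries. Ndufa3, a small accessory subunit of the membrane arm (chr7:3617373-3620327), had 14.8 TPM in replicate 1 and 27.8 TPM in replicate 2. Wide TPM intervals were deposited for Ndufa3, which overlap, 12 to 93.2 in replicate 1 and 21.9 to 131 in replicate 2, and its posterior mean TPM was 41.2 and 60.9, above that of Ndufs1 (25.5 and 30.7). At the other end, Ndufa8, an accessory subunit of the intermembrane space, had 4.77 and 3.20 TPM. Ndufb6, an accessory subunit of the membrane arm (chr4:40270591-40279421), had 2.17 TPM from 21 counts in replicate 1 and 0.66 TPM from 4 counts in replicate 2. It was the 1 member of complex I below the detection threshold in a library. Its deposited TPM interval was 1.43 to 3.43 in replicate 1 and 0.303 to 1.91 in replicate 2, so the intervals overlap, and 34.4% of its 31-base words also occur in Smim27, a gene that overlaps it on the opposite strand. Among detected subunits the highest stood 5.19-fold above the lowest in replicate 1 and 12.1-fold in replicate 2.

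Complex II, succinate dehydrogenase, is shared with the citric acid cycle and has 4 subunits, all nuclear. Sdha, the flavoprotein that oxidises succinate (chr13:74322254-74350280), had 56.3 TPM in replicate 1 and 50.2 TPM in replicate 2, from 2029 and 1193 counts. Sdhb, the iron-sulfur subunit (chr4:140961203-140979193), had 20.7 and 16.9 TPM. The anchors were lower, at 15.1 and 8.90 TPM for Sdhd and 6.51 and 8.41 TPM for Sdhc. The order Sdha, Sdhb, Sdhd, Sdhc held in both libraries, with the last pair close in replicate 2. In the second quantification Sdhc was above Sdhd, with 6.07 and 8.33 TPM for Sdhc and 6.03 and 5.57 TPM for Sdhd. Sdha stood 8.64-fold above Sdhc in replicate 1 and 5.96-fold in replicate 2.

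Complex III members had a median of 11.3 TPM in replicate 1 and 6.26 TPM in replicate 2. All 9 were detected. Uqcrh, the hinge protein that contacts cytochrome c1, was highest with 28.5 and 21.5 TPM. Uqcrc1, a core protein on the matrix side (chr9:108936633-108949623), followed with 21.8 and 20.3 TPM, and the quinone-site protein Uqcrb had 16.7 and 20.1 TPM. Uqcrc2, the core partner of Uqcrc1, was lower, at 8.17 and 6.26 TPM. The catalytic subunits were not the highest. Cyc1, cytochrome c1, had 11.2 and 10.3 TPM, and Uqcrfs1, the Rieske iron-sulfur protein (chr13:30540308-30545362), had 9.36 TPM in replicate 1 and 3.55 TPM in replicate 2, the lowest mean of the complex. The small subunits Uqcr10 (11.3 and 3.95 TPM) and Uqcr11 (15.8 and 5.36 TPM) were also far apart between libraries. Cycs, which carries electrons from complex III to complex IV, had 5.31 and 3.57 TPM.

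Complex IV members had a median of 9.55 TPM in replicate 1 and 5.43 TPM in replicate 2, a value lowered by 7 isoforms that are restricted to other tissues. Cox4i1, the regulatory subunit found in most tissues (chr8:120668222-120674207), had 69.6 TPM in replicate 1 and 36.5 TPM in replicate 2. Cox7c had 47.1 and 38.9 TPM, and Cox6c had 38.6 and 29.3 TPM. Cox4i1 was the highest of the complex in replicate 1 and Cox7c in replicate 2, so the order of the first pair was not settled by these libraries. The 11 ubiquitous subunits had medians of 20.0 and 12.8 TPM, and all were detected.

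None of the 7 tissue-restricted isoforms of complex IV reached 1 TPM in both libraries. Cox4i2, the lung isoform that pairs with Cox4i1, was at 0 counts throughout. At a limit of 3 counts per library its level could reach 0.265 TPM (replicate 1) and 0.401 TPM (replicate 2). At that limit Cox4i1 was at least 262-fold higher in replicate 1 and at least 91.0-fold higher in replicate 2. The deposited upper bounds for Cox4i2 were above the limit, at 0.400 TPM (replicate 1) and 0.586 TPM (replicate 2), and allow smaller folds. Cox7b2 and Cox8b, isoforms of testis and of muscle, had 0 counts as well, and Cox7b and Cox8a were at least 22.5-fold and at least 17.4-fold higher in replicate 1 and at least 4.95-fold and at least 6.19-fold higher in replicate 2. The muscle isoform Cox7a1 had 1.32 TPM from 5 counts in replicate 1 and 0 counts in replicate 2, against 8.66 and 5.43 TPM for Cox7a2. The testis isoform Cox6b2 had 0.72 TPM from 4 counts in replicate 1 and 0 in replicate 2, against 20.0 and 19.2 TPM for Cox6b1. Cox6a2 (2 counts) and Cox8c (1 count) were seen in replicate 1 only. In the second quantification Cox7a1 had 3.66 and 2.09 TPM and Cox8b 1.54 and 0.47 TPM, so these levels depend on the table used. Cox8a had 17.2 and 10.5 TPM there, and the bound of 17.4-fold over Cox8b in replicate 1 was not met.

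Complex V members had a median of 17.4 TPM in replicate 1 and 9.78 TPM in replicate 2. Atp5b, the catalytic beta subunit (chr10:128083273-128090391), had 73.6 TPM in replicate 1 and 66.7 TPM in replicate 2, from 1778 and 867 counts, with deposited intervals of 63.6 to 80.5 and 55.6 to 72.1 TPM. It had the highest mean of all 90 members, 70.2 ± 4.92 TPM (SD, n = 2). Its partner in the catalytic head, the alpha subunit Atp5a1, had 41.4 and 26.7 TPM. Outside coding transcripts lay 53.0% and 66.5% of the TPM of Atp5b, against 6.54% and 7.19% for Atp5a1. By coding transcripts alone Atp5b thus did not exceed Atp5a1 in either library. The head holds equal numbers of both proteins, and protein was not measured. Atp5h, of the peripheral stalk that holds the head still (chr11:115415689-115419962), had 30.2 and 31.3 TPM.

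The genes Atp5g1, Atp5g2 and Atp5g3 encode the same mature subunit c of the proton-driven ring behind different import sequences. Atp5g3 had 26.9 TPM in replicate 1 and 17.7 TPM in replicate 2, Atp5g2 had 12.2 and 8.68 TPM, and Atp5g1 had 5.41 and 3.78 TPM. The order held in both libraries, and in each library the gaps between neighbours exceeded a factor of 2 in these values. In the second quantification the order was the same, but Atp5g2 and Atp5g1 were less than a factor of 2 apart. Atp5g2 had 3.56 and 5.27 TPM there, and Atp5g1 2.54 and 3.34 TPM. In Atp5g2 40.2% of the 31-base words also occur in other genes, mostly in the transcribed pseudogene Gm10175, against 14.1% in Atp5g1 and 0% in Atp5g3. Atp5g1 was the lowest detected subunit of the complex in both libraries, at 13.6-fold and 17.6-fold below Atp5b. The readthrough entry of Atp5o had 0 counts, while Atp5o itself had 10.4 and 5.86 TPM.

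Processed pseudogenes show how far a level can depend on where reads are placed. Ndufb4c (chr15:73809507-73809896) is identical to the coding part of Ndufb4 (chr16:37647170-37654453) over its whole length, 390 of 390 bases, and was given 9.42 TPM from 35 counts in replicate 1 and 9.59 TPM from 25 counts in replicate 2. Ndufb4 was given 5.32 TPM from 59 counts and 3.10 TPM from 22 counts. Nothing in these bases tells the 2 genes apart, so neither level can be taken alone. Cox6c2 (chr12:56373593-56373823) matches the coding part of Cox6c (chr15:35925886-35938246) at 224 of 231 bases and had 0 counts in both libraries. Ndufs6b (336 of 348 bases identical) had 0 counts and Ndufa11b (402 of 424) had 3 and 1 counts. The first 240 bases of the identical pair and the whole of Cox6c2 with its parent are printed, with mismatched bases in capitals, from the transcript sequences of GENCODE annotation M21 on the strand of each gene.
Ndufb4c: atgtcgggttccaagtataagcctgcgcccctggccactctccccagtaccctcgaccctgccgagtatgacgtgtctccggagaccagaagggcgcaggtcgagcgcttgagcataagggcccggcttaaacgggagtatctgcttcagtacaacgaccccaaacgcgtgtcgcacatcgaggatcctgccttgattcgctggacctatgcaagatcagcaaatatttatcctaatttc
Cox6c2: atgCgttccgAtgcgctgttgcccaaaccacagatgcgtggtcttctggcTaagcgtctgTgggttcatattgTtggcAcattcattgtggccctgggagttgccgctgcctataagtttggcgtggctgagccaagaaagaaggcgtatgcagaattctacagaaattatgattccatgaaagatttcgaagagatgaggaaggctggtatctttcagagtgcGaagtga
Cox6c: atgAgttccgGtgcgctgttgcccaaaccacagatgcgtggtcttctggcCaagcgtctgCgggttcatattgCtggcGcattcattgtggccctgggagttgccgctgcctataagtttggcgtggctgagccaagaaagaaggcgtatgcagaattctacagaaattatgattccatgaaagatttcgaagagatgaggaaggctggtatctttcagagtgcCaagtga

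Over all 90 members, 70 share at least 1 31-base word with another gene, with a median of 5.82% of their words, and 17 share more than 20%. The 17 are the 4 pseudogenes, both entries of Atp5o, Atp5g2, Atp5h, Uqcrb, Ndufb6, Ndufb11, Cycs, Cox7c, Ndufs3, Ndufs5, Ndufa12 and Ndufa13. How reads of such genes were divided sets part of their levels. Sdha, Atp5b, Atp5a1 and Cox4i1 are not among the 17.

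Between the libraries, counts were scaled by TMM, the trimmed mean of log ratios, and centred on the median gene. The 62 members with a mean of at least 50 scaled counts had a median log2 ratio of 0.28 (replicate 1 over replicate 2), and 50 of the 62 were higher in replicate 1, against 50% of all 11526 genes by the centring. A difference of more than 2-fold was seen for 2 members, both higher in replicate 1, against 1.48% of all genes, and for 0 members in the other direction, against 0.46%. Most ratios were thus small and of one sign. The mitochondrial ribosomal protein genes had a median of 0.06 (63 genes) and the cytosolic ribosomal protein genes 0.67 (76 genes). Counting error alone places the 95% interval of the ratio above 0 for 28 of the 62 members and below 0 for 6, against 22.9% and 22.8% of all 11526 genes.

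By complex the median log2 ratio was 0.09 for complex I (23 members), 0.12 for complex II (4), 0.38 for complex III (7), 0.51 for complex IV (11) and 0.38 for complex V (16). All 11 members of complex IV were higher in replicate 1, against 16 of 23 of complex I. The accessory subunit Ndufb11, on the X chromosome, had 118 scaled counts in replicate 1 and 47.7 in replicate 2, a log2 ratio of 1.28 with a counting interval of 0.77 to 1.86. Uqcrfs1 had 185 and 76.1 scaled counts, a log2 ratio of 1.27 (0.86 to 1.71). Next came Atp5d, the delta subunit of the ATP synthase stalk (0.99), Ndufa4 (0.89) and Cox4i1 (0.87).

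A few members went the other way. Atp5s, which is not a subunit, had 88.4 scaled counts in replicate 1 and 160 in replicate 2, a log2 ratio of -0.85 with a counting interval of -1.24 to -0.48. Ndufv2, a core iron-sulfur subunit of complex I, had 131 and 217 scaled counts (-0.73). Ndufa3 (-0.63), Uqcrb (-0.41) and Ndufa10 (-0.30) followed, and Ndufs1 had -0.24. Of the 12 members that were lower in replicate 1, 7 belong to complex I. Its core subunits were split, with Ndufs3 (0.55) and Ndufv1 (0.35) higher and Ndufv2 lower in replicate 1.

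The 3 members on the X chromosome, Ndufa1, Ndufb11 and Cox7b, had 57, 152 and 81 counts in replicate 1 and 13, 37 and 27 counts in replicate 2. Their log2 ratios were 1.34, 1.28 and 0.83, of which only that of Ndufb11 rests on a mean of 50 scaled counts. The median of 285 protein-coding genes on the X chromosome was -0.06, and 0.702% of them were more than 2-fold higher in replicate 1.

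**Figure D3:**
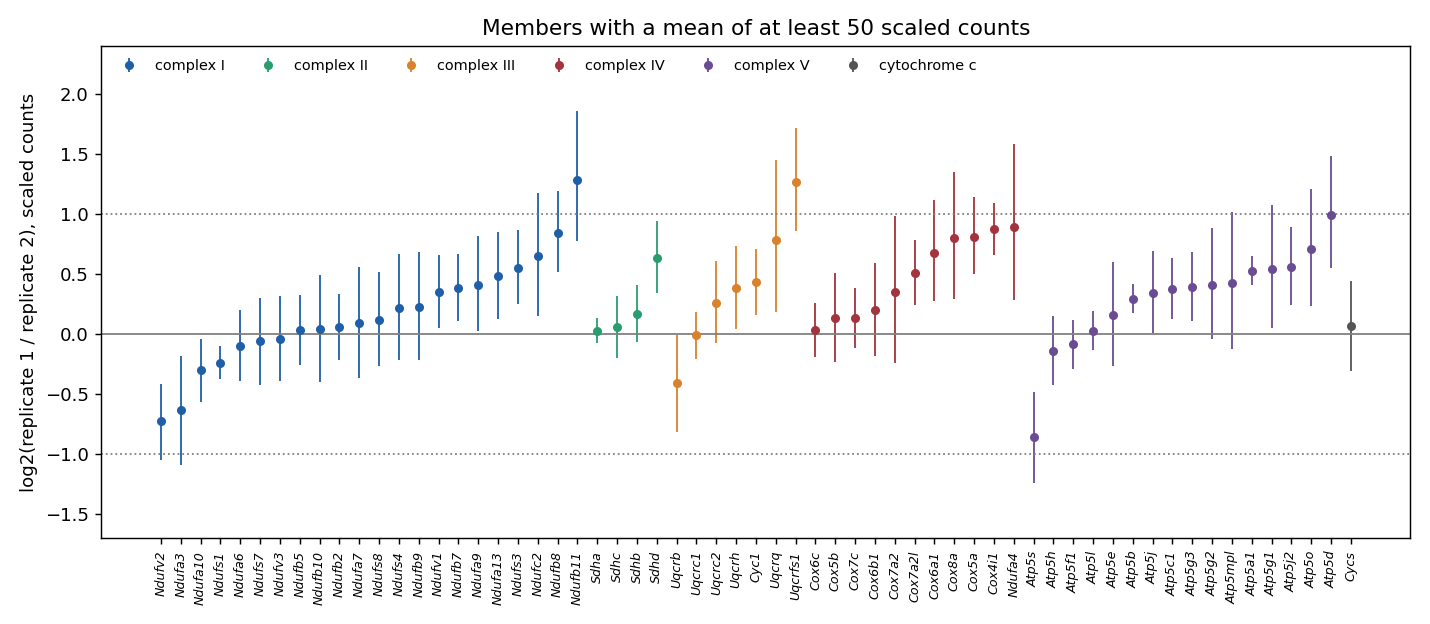
Log2 ratio of replicate 1 to replicate 2 (vertical axis, scaled counts) for 61 of the 62 members with a mean of at least 50 scaled counts, ordered within each complex. Points are ratios, bars are 95% counting intervals, and dotted lines mark 2-fold differences. All points of complex IV lie above 0, and Ndufb11 (1.28) and Uqcrfs1 (1.27) are the 2 above the upper dotted line.

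Over all protein-coding genes the median ratio between libraries fell with effective length. Over the 62 members the Spearman coefficient between ratio and effective length was -0.16. Members were short, with a median effective length of 587 bases among detected members, against 2200 bases among all detected protein-coding genes. Below 500 bases the median log2 ratio was 0.28 over 22 members and 0.36 over all 161 protein-coding genes. From 500 to 1000 bases it was 0.39 over 19 members and 0.13 over 817 genes, and from 1000 to 1500 bases 0.26 over 13 members and 0.06 over 1400 genes. The median of the shortest members thus lay below that of all genes of their length, and the medians of members from 500 to 1500 bases lay above. For 8 members of 1500 bases and over the median was 0.06, against -0.02 for 7376 genes. The part of length and of RNA input in the difference was not tested.

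**Figure D4:**
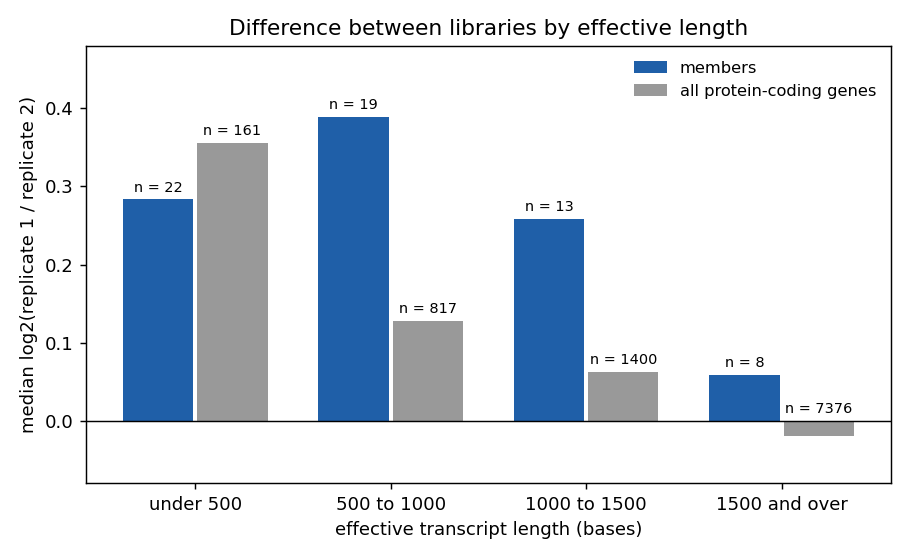
Median log2 ratio of replicate 1 to replicate 2 (vertical axis) by effective transcript length, for members (blue) and all protein-coding genes (grey), with the number of genes above each bar. Grey bars step down from 0.36 to -0.02 with length, and blue bars are at 0.28, 0.39, 0.26 and 0.06.

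Transcripts annotated as retaining an intron, which can mark incomplete splicing, held 19.1% of the TPM of coding members in replicate 1 and 23.3% in replicate 2. The same share over all protein-coding genes was 19.6% and 19.9%. Protein-coding transcripts held 71.4% and 62.4% of member TPM, against 72.9% and 72.0% over all protein-coding genes. All protein-coding genes here include the 13 mitochondrially encoded subunits, which held 17.7% and 23.3% of that TPM, all in coding transcripts. Without them the retained intron share over all genes would be higher and the coding share lower. Those shares were not calculated. Taking that TPM out would place the retained intron share of members below that of the remaining genes in both libraries. By expected counts, which weigh long transcripts more, retained intron transcripts held 22.1% and 26% for members and 14.8% and 15.5% over all genes. Members lay above all genes by counts, so the side on which they lie depends on the measure. By TPM the share was 22.5% and 28.4% for complex I, 24.4% and 26.9% for complex II (all of it from Sdha), 19% and 19.6% for complex III, 13.7% and 16.2% for complex IV and 17.9% and 22.4% for complex V. The order of complexes depends on the measure. By expected counts complex II was lowest (7.84% and 9.33%) and complex IV had 20.7% and 25.9%, and in the second quantification complex III had 20.6% and 22.2% and complex IV 23.2% and 28.9%.

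Members differed widely. Of the 77 detected coding members, 30 have no retained intron transcript in the annotation, and 5 of the other 47 had over 50% of their TPM there in both libraries (Ndufb4, Atp5j, Ndufa10, Ndufs1 and Ndufa6), against 16.9% of 6326 detected protein-coding genes with such a transcript. Ndufb4 had 79.4% in replicate 1 and 80.0% in replicate 2, a share that depends on how reads of its coding part were divided with the identical Ndufb4c. Ndufs1 had 54.8% and 53.9%, and Sdha 42.7% and 45.3%. For these 3 genes the libraries gave close shares. For Ndufa10, an accessory subunit of complex I, the shares were 53.9% and 73.5%, and for Cyc1 64.7% and 32.4%. The second quantification split Cyc1 otherwise. Its coding transcript Cyc1-201 had 4.76 and 7.39 TPM there, and its retained intron transcript Cyc1-204 had 1.79 and 0.484 TPM.

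Outside coding transcripts of any kind, the members with the largest mean shares were Ndufa5 (81.7% and 97.8%), Atp5f1 (84.4% and 88.3%), Ndufa10 (78.4% and 85.9%), Ndufb4 and Ndufs7 (55.6% and 100%). Atp5f1, subunit b of the peripheral stalk, had its highest transcript in the class of nonsense-mediated decay, at 7.75 TPM in replicate 1 and 6.52 TPM in replicate 2. Ndufs7, a core subunit beside the quinone site, had 6.59 TPM of the coding transcript Ndufs7-201 in replicate 1 and 0 TPM in replicate 2, while the gene had 15.7 and 15.5 TPM. Ndufa5 likewise had 4.57 TPM of a processed transcript in replicate 1 and 0 in replicate 2, with 6.83 and 6.92 TPM for the gene. In the second quantification Ndufs7-201 had 1.25 and 0.165 TPM and the gene Ndufs7 12.2 and 18.6 TPM.

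**Figure D5:**
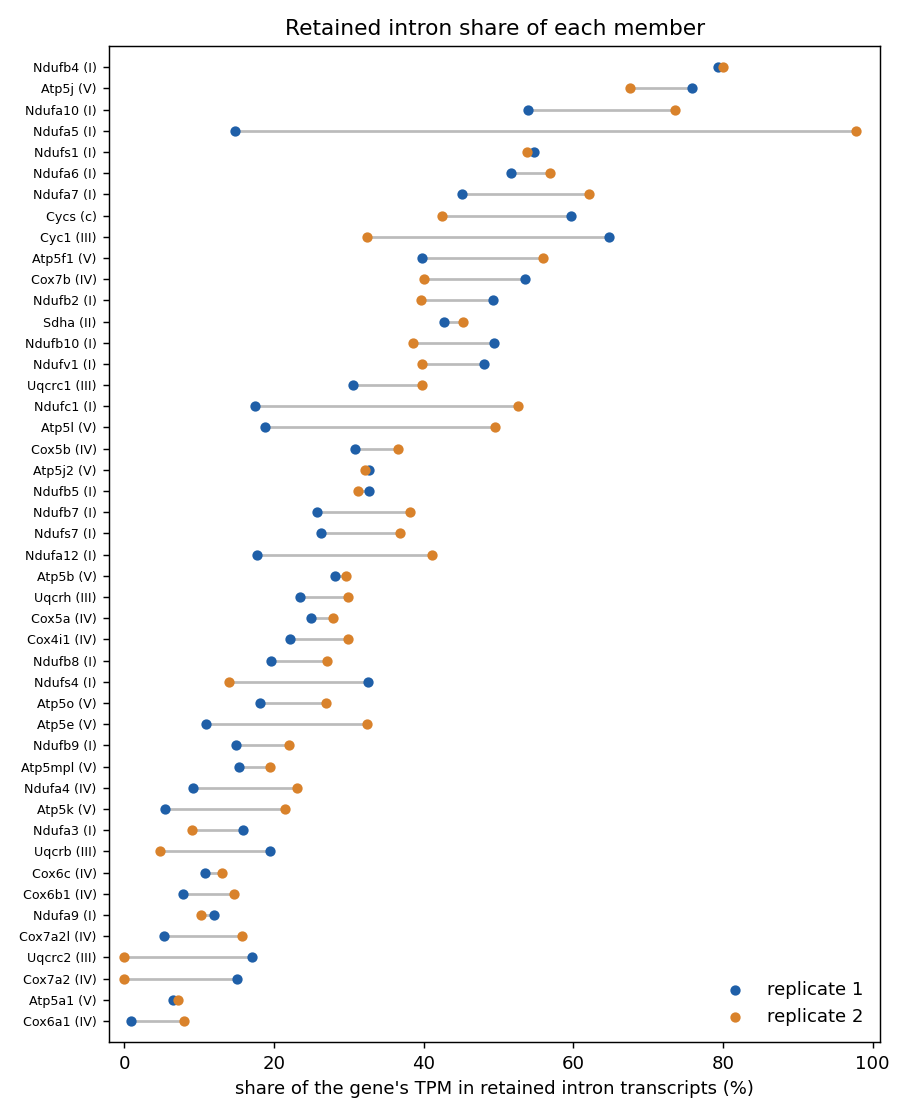
Share of each gene's TPM in retained intron transcripts (horizontal axis, %) for 46 of the 47 detected coding members that have such a transcript, replicate 1 in blue and replicate 2 in orange, joined by a line. The complex is given in brackets (c is cytochrome c). Ndufb4, whose coding part is identical to Ndufb4c, stands at 79.4% and 80.0%, and Ndufa5 has the longest line, at 14.8% and 97.8%.

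Coding and retained intron transcripts differed between libraries by different amounts. With a mean of at least 20 scaled counts in the class, coding transcripts of 75 members had a median log2 ratio (replicate 1 over replicate 2) of 0.40, and 63 of the 75 were higher in replicate 1. Retained intron transcripts of 30 members had a median of 0.04, with 16 of the 30 higher. Over all protein-coding genes the medians were 0.04 for coding transcripts (10476 genes) and -0.05 for retained intron transcripts (4925 genes). The cytosolic ribosomal protein genes had 0.85 and 0.15, and the mitochondrial ribosomal protein genes 0.16 and 0.00. In 29 members with both classes measured, the coding class had the higher ratio in 20 (69.0%), against 55.1% of 4715 genes. Atp5l, subunit g of the ATP synthase membrane part, had 121 and 33.9 scaled counts in coding transcripts and 539 and 612 in retained intron transcripts. Cyc1 went the other way, with 82.3 and 86.0 scaled counts in coding and 198 and 98.1 in retained intron transcripts. These are differences between 2 libraries, and the split itself is an estimate.

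Between the 2 quantifications the order of members was similar, with a Spearman coefficient of 0.89 over 86 genes that share the same reads. For the 44 members with a mean of at least 10 TPM the second stood at a median log2 difference of -0.53 (second over first, pseudocount 1), and all 5235 protein-coding genes at that level stood at -0.51. Farthest below were Atp5g2 (-1.08), Cox6c (-1.06), Atp5e (-1.02), Atp5b (-1.01) and Cox5a (-0.94). Farthest above were Ndufa7 (0.52), Atp5j (0.14), Cox8a (0.10), Ndufs3 (0.09) and Ndufs1 (0.06). Atp5b had 34.9 TPM in replicate 1 and 33.9 TPM in replicate 2 there, below Sdha (51.6 and 49.2 TPM) and Cox4i1 (43.7 and 40.8 TPM), so the first place depends on the quantification. The gap between libraries in median TPM also depends on it. In the second table the medians were 6.53 and 6.96 TPM for complex I, 8.73 and 10.5 TPM for complex II, 7.30 and 9.41 TPM for complex III, 8.88 and 8.43 TPM for complex IV and 10.2 and 8.63 TPM for complex V.

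Factors that assemble the complexes without being part of them were mostly lower. The 15 measured of 16 listed for complex I, all detected, had a median of 4.37 TPM in replicate 1 and 3.82 TPM in replicate 2, from Foxred1 (16.9 and 14.3 TPM) and Tmem126b (11.8 and 13.5 TPM) to Ndufaf2 (1.41 and 1.04 TPM). Of the 4 of complex II 3 were detected, with medians of 1.92 and 2.0 TPM, from Sdhaf2, needed for the flavin of Sdha (11.3 and 11.2 TPM), and Sdhaf3 (2.10 and 2.04 TPM) to Sdhaf1 (1.49 and 0.83 TPM). Of the 6 of complex III 4 were detected, with medians of 4.88 and 3.37 TPM, from Ttc19 (11.1 and 12.7 TPM) and Uqcc1 (8.51 and 8.57 TPM) to Lyrm7 (0.90 and 0.89 TPM). Of the 20 of complex IV 18 were detected, with medians of 5.06 and 4.36 TPM, from the copper carrier Cox17 (26.6 and 17.7 TPM) and Surf1 (22.2 and 20.6 TPM) to Pet117 (0 and 0.34 TPM). Of the 4 of complex V 3 were detected, with medians of 4.0 and 5.08 TPM, from Atpaf1, which binds the beta subunit (14.1 TPM in both libraries), and Atpaf2 (3.88 and 6.35 TPM) to Fmc1 (0.18 and 0 TPM). Assembly factors of complexes I and IV had median log2 ratios between libraries of -0.01 (11 genes) and 0.06 (15 genes). Against the medians of 0.09 and 0.51 for their subunits, no test was made.

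Among 15 regulators of respiratory chain genes, 14 were detected, with medians of 8.25 TPM in replicate 1 and 9.33 TPM in replicate 2. Gabpb2 (22.9 and 21.5 TPM) and Esrra, the estrogen-related receptor alpha (20.4 and 23.6 TPM), were highest. Nrf1 had 13.6 and 12.7 TPM, Gabpa 8.25 and 10.1 TPM and Yy1 9.79 and 10.2 TPM, so genes of the factors behind the 3 promoter motifs were all detected. Ppargc1a, the coactivator of mitochondrial biogenesis best known from muscle and brown fat, had 1 count in replicate 1 and 2 in replicate 2. Its paralog Pprc1 had 16.9 and 20.2 TPM and Ppargc1b 2.26 and 3.0 TPM. Of 4 measured subunits or partners outside the symbol rule, Atpif1, the inhibitor of the ATP synthase, had 45.2 and 47.1 TPM, Ndufab1 25.6 and 19.4 TPM, Usmg5 21.5 and 14.4 TPM and Ndufa4l2 0.25 and 0 TPM.

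The 13 subunits encoded in the mitochondrial genome were far above the nuclear ones. Their sums were 54801 TPM (replicate 1) and 68764 TPM (replicate 2), 41.7-fold and 69.9-fold the sum of the nuclear-encoded members (1313 and 983 TPM). By expected counts the folds were 40.9 in replicate 1 and 56.6 in replicate 2. Folds in the second quantification were not calculated. Their order differed between libraries and between quantifications. mt-Co1 had 15478 and 13138 TPM, and mt-Atp8 10121 and 21382 TPM. At the low end, mt-Nd3 had 727 and 401 TPM and mt-Co2 335 and 137 TPM. The median log2 ratio of the 13 was -0.51, with 5 of them higher in replicate 1, 3 by more than 2-fold, and 1 more than 2-fold lower, while the nuclear-encoded members stood at 0.28. Where these genes overlap, as mt-Atp8 and mt-Atp6 or mt-Nd4l and mt-Nd4 do, the split of reads is uncertain. Mitochondrial RNA is made outside the nucleus, and how much of each library came from outside the nucleus was not measured here.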

How the data were processed

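Nuclear RNA, depleted of ribosomal RNA, was sequenced in 2 libraries of 1 group. Per the file headers and the text deposited beside them, the authors' gene and transcript tables hold expected counts and TPM from alignments to mm10 with GENCODE annotation M21. A second transcript table from the reads and the same annotation also holds estimated counts and TPM, and was summed per gene (the second quantification). Which programs were run, and how strand was treated, is not given in the sources used here. Deposited interval bounds of TPM (entered as signal) are printed for Atp5b, Ndufb6 and Ndufa3, and the upper bounds for Cox4i2. Posterior mean TPM, as deposited, served as an alternative.

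Members were matched by symbol and placed in complexes by hand. The members and lists were chosen with earlier results of these data known. Left out were 26345 entries outside the gene annotation (1.18% of counts in replicate 1 and 0.405% in replicate 2). Expected counts were rounded and scaled with TMM (edgeR 4.0.16, R 4.3.3), and ratios were centred on the median gene, after adding 1, for genes averaging 50 scaled counts or more. The coefficient of variation comes from the common dispersion in edgeR (its square root). Counting intervals are exact binomial (95%), and a count of 0 allows up to 3 counts. Both describe counting error and nothing else, because without molecular identifiers several reads can stem from 1 molecule. The ratio code was tested on simulated data. Shared sequence was counted as 31-base words. Genes described in full were, for each complex, the 3 highest and 2 lowest by mean TPM, members under 1 TPM in a library, the 5 farthest apart in each direction between libraries and between quantifications, and the 5 with most TPM outside coding transcripts. In other lists they were the 2 highest and the lowest. Single values of 1 member and 1 marker are not reported here. Coa1 and Atp5md, on the fixed lists, matched no symbol of the annotation. Alternatives were other detection thresholds, pseudocounts and filters, DESeq2 1.42.0 size factors, TPM, posterior mean TPM, the second quantification, TPM rescaled over protein-coding genes, members without overlaps or restricted isoforms, and each library alone. Calculations ran in Python 3.11.15 (scipy 1.17.1, pandas 2.3.3, numpy 2.4.6). Values of genes chosen after they were seen, outside this rule, are Atp5l, Cyc1, Atp5g3, the X-linked Ndufa1 and Cox7b, Uqcr10 and Uqcr11, and among the lists Nrf1, Gabpa, Yy1, Pprc1, Ppargc1b and mt-Nd3.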

Additional observations from a re-analysis of the deposited data

How the results depend on the processing

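Of the members, 60 to 80 were detected under every threshold and table tried, against 78. Each library alone gave 78 to 80 detected members, a median of 7.87 to 11.3 TPM over all members, a share of protein-coding TPM of 0.334% to 0.425% and a retained intron share of 19.1% to 23.3%. Rescaling TPM over protein-coding genes, which held 31% and 29.5% of TPM, multiplied the medians by construction, to 31.5 over all members, 27.8 for complex I, 50.8 for complex II, 28.9 for complex III, 24.7 for complex IV and 44.7 for complex V. The second quantification lowered the median of complex II to 9.63 TPM and raised the retained intron share to 27.4%; the cause was not tested. The median of complex IV, 7.49 TPM, was 11.6 TPM by posterior mean, where the median gene Cox7b stood at 15.0 and 8.19 TPM, and 16.7 TPM without the restricted isoforms, which are near 0. Without members that overlap another gene or have a named pseudogene, the share of protein-coding TPM was 0.220%, as fewer genes are summed. The median log2 ratio between libraries stayed positive, at 0.13 with a mean of at least 200 scaled counts (26 members) and 0.26 without members sharing over 20% of their words, an alternative added after seeing the data. Members more than 2-fold higher in replicate 1 numbered 2, but 4 by TPM, 10 without a filter (84 members, where 8.79% of all genes passed), 4 in the second quantification and 0 with at least 200 scaled counts; 0 were more than 2-fold lower under any of these. No paired analysis was possible because the 2 libraries belong to 1 group. Depth limits members under about 50 counts, whose ratios carry wide counting intervals.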
